A study of Mus musculus with 16 samples.

Results

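Maf, Nfil3 and Prdm1 are 3 genes for transcription factors of helper T cells, measured here in CD4+ T cells of lymph nodes that drain the heart, after myocardial infarction or a sham operation. Each was found by its exact symbol in the authors' deposited tables of changed genes, with 1 probe set per gene, among 269 distinct symbols that these tables give to single probe sets. All 3 stand in the table for transferred cells and none in the table for the recipients' own cells. The members were therefore selected on their difference between infarction and sham in the transferred cells, at least 2-fold with a p under 0.05 per the table's heading. That difference is described below with no test. The recipients' own cells played no part in the choice, and the difference was tested there.

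Recipients were wild-type male BALB/c mice with the Thy1.2 marker, 8 to 12 weeks old. On the day before surgery every recipient, sham animals included, was given Thy1.1 CD4+ T cells from naive TCR-M donors, transgenic mice whose T cells recognise cardiac myosin. Infarction was made by ligating the left anterior descending coronary artery, and sham animals had the chest opened without ligation; buprenorphine was given for pain after surgery. Cells were sorted from mediastinal lymph nodes on day 7: the transferred myosin-specific cells (TCRM) and, from the same animals, endogenous CD4+ cells (ENDO). The transferred cells share a transgenic receptor, so they are not a sample of the normal repertoire. Each population gave 5 infarction and 3 sham arrays, 1 per animal per the series design, on Affymetrix whole transcript arrays. Of 12 genes fixed as markers of CD4+ T cells, only Trat1, an adaptor of the T cell receptor, was named in these tables. Its mean log2 signal was 7.64 in TCRM infarction, 8.73 in TCRM sham, 9.07 in ENDO infarction and 9.32 in ENDO sham. Infarction minus sham was -1.10 ± 0.27 (SE) in TCRM cells, with every infarction array below every sham array, and -0.25 ± 0.27 in ENDO cells. The other 11 were not analysed here.

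The factors work at different points of T helper differentiation. Maf encodes c-Maf, a large Maf protein with a basic leucine zipper that activates Il4, Il10 and Il21 in helper T cells and takes part in the follicular helper, Th17 and interleukin 10 producing programmes. Nfil3 encodes E4BP4, also a basic leucine zipper protein, known for circadian control, for natural killer cell development and for control of cytokine genes in T cells. Prdm1 encodes Blimp-1, a zinc finger repressor that drives plasma cell differentiation in B cells and, in T cells, limits Il2 and opposes Bcl6 and the follicular helper fate. Prdm1 and Maf are known to act together on a module of co-inhibitory receptors in T cells.

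RefSeq windows around a transcription start were at hand for 2 of the 3 genes, Nfil3 and Prdm1, on build GRCm38.p6. They are shown because these genes were both higher in TCRM cells after infarction, and because they are the stretches searched for sites of the factors themselves. Each runs 5′ to 3′ on the gene's strand, with 250 bases before the start in lower case and 50 bases from the start on in capitals.
Nfil3, chr13:52980990-52981289, minus strand: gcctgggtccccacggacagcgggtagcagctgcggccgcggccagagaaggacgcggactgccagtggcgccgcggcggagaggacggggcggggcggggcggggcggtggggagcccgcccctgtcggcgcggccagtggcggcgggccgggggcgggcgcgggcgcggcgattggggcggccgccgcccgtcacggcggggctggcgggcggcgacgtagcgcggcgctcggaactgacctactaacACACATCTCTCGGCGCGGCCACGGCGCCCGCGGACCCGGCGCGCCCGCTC
Prdm1, chr10:44458699-44458998, minus strand: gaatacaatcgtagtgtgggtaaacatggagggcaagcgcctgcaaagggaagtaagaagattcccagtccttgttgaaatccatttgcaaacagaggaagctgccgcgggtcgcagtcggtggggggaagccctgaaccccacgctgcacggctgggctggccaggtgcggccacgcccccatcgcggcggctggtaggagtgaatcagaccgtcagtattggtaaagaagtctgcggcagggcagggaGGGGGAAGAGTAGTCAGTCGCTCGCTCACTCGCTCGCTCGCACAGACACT
The Nfil3 window is 81.7% G and C with 54 CpG dinucleotides, and the Prdm1 window 59.7% with 20. Over all 32851 windows of the table the medians are 52.7% and 7. Sites were searched on both strands: the Maf core sites TGCTGAC and TGCTGAG, the NFIL3 sites TTACGTAA, TTATGTAA and TTACATAA, the PRDM1 core AAGTGAAA (also the core of interferon response sites), the AP-1 site TGACTCA, the CRE TGACGTCA, the STAT site TTCNNNGAA, the E-box CACGTG and the NFAT site GGAAAA. Neither window held a match to any of them. Of all windows, 4.67% held TGCTGAC, 7.84% TGCTGAG, 0.12% TTACGTAA, 0.94% either other NFIL3 form, 1.6% AAGTGAAA, 5.2% TGACTCA, 1.79% TGACGTCA, 8.3% the STAT site, 7.15% the E-box and 23.36% GGAAAA. The absence says only that these letters do not occur in these 300 bases.

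The arrays titled infarction 5 of both populations carry a source name that says sham. The titles were followed, because bi-weight averages over the titles' groups gave the authors' averages within 0.01 for 196 of 196 TCRM and 274 of 274 ENDO probe sets, against 2 and 8 with the source names. Arrays of 1 population shared exactly equal values beyond chance (121.3 ± 60.1 in TCRM pairs, SD over 28 pairs, and 123.9 ± 74.0 in ENDO pairs, 28 pairs), which TCRM and ENDO arrays did not with each other (-5.4 ± 45.3, 64 pairs). The populations were therefore treated as normalized separately, and a level in TCRM cells was not tested against a level in ENDO cells. Median log2 signal was 5.37 to 5.43 on TCRM and 5.61 to 5.79 on ENDO arrays.

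Maf had the widest difference of the 3 genes in the myosin-specific cells. Its log2 signal on TCRM infarction arrays 1 to 5 was 9.77, 9.61, 9.01, 9.39 and 9.05, and on sham arrays 1 to 3 it was 7.29, 7.39 and 7.37. The lowest infarction array lay 1.62 above the highest sham array, and the sham arrays were within 0.10 of each other. Mean log2 signal was 7.35 ± 0.05 (SD, n = 3) in sham and 9.37 ± 0.34 (SD, n = 5) in infarcted animals, a difference of 2.02 ± 0.23 (SE), or 4.06-fold. The authors' deposited table gives averages of 9.37 and 7.37 and a fold of 4, place 21 of 196 by size of fold and place 8 by p, with a false discovery rate of 0.0854. In bulk arrays such as these, more cells with a transcript and more transcript per cell cannot be told apart.

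In ENDO cells Maf signal was 7.12, 6.84, 6.75, 6.41 and 5.96 on infarction arrays 1 to 5 and 6.66, 6.30 and 6.33 on sham arrays 1 to 3. The groups overlapped, with 3 of 5 infarction arrays above all sham arrays, 1 near the sham mean of 6.43 and 1 below every sham array. The difference was 0.19 ± 0.23 (log2, SE), with a 95% confidence interval of -0.31 to 0.68 and an adjusted p of 0.848 in limma's moderated test. Without infarction array 1 it was 0.06, without infarction array 5 it was 0.35, and without sham array 1 it was 0.30.

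Nfil3 was higher in TCRM cells after infarction by a smaller step. Its signal was 7.53, 7.36, 6.88, 7.19 and 6.62 on infarction arrays 1 to 5 and 6.10, 5.66 and 5.87 on sham arrays 1 to 3. No infarction array reached down to a sham array, and the nearest pair was 0.52 apart. The difference of the means was 1.24 ± 0.24 (log2, SE), or 2.36-fold, from 5.88 ± 0.22 (SD, n = 3) to 7.12 ± 0.37 (SD, n = 5). The authors' deposited table gives 2.4-fold, place 113 of 196 by fold and 63 by p, with a false discovery rate of 0.182.

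ENDO cells showed wide variation of Nfil3 between infarcted animals and little between sham animals. Signal was 6.18, 5.83, 6.29, 5.54 and 6.66 on infarction arrays 1 to 5 (SD 0.43), and 6.26, 6.15 and 6.17 on sham arrays 1 to 3 (SD 0.06). Infarction arrays lay on either side of the sham arrays, 2 above all of them and 2 below all of them, with array 1 in between. The difference was -0.10 ± 0.24 (log2, SE), 95% interval -0.60 to 0.41, adjusted p = 0.935 (limma). Its sign turned to 0.04 without infarction array 4. Over all tested probe sets the median SD was 0.28 on ENDO infarction and 0.21 on ENDO sham arrays. Of them, 73.4% had a smaller SD than Nfil3 on infarction arrays and 7.7% on sham arrays.

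Prdm1 differed from the other genes in how its groups lay. In TCRM cells its signal was 6.94, 6.88, 6.61, 6.74 and 6.10 on infarction arrays 1 to 5 and 5.67, 6.22 and 5.51 on sham arrays 1 to 3. Here the groups overlapped: infarction array 5 (6.10) was below sham array 2 (6.22), while the other 4 infarction arrays were above all sham arrays. The means were 6.65 ± 0.34 (SD, n = 5) and 5.80 ± 0.38 (SD, n = 3), and the difference was 0.85 ± 0.19 (log2, SE), or 1.81-fold.

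Whether Prdm1 counted as 2-fold changed depended on the kind of average. The authors' deposited table gives averages of 6.79 and 5.66 and a fold of 2.18, place 150 of 196 by fold and 146 by p, with a false discovery rate of 0.283. The smallest fold in that table is 2.01. Its headers name the averages as bi-weight, a robust mean that gives low weight to values far from the median. Recomputed in this way, infarction array 5 had a weight of 0.01 and sham array 2 a weight of 0.25, against 0.85 to 1 for the other arrays, and the difference was 1.12 in place of 0.85. For Maf (2.0) and Nfil3 (1.26) the bi-weight differences were close to those of the means. Without sham array 2 the difference of the Prdm1 means was 1.06, without infarction array 5 it was 0.99, and without sham array 3 it was 0.71.

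In ENDO cells Prdm1 was the only one of the 3 whose groups did not overlap. Signal was 6.62, 6.36, 6.33, 6.34 and 6.31 on infarction arrays 1 to 5 and 6.22, 6.27 and 5.91 on sham arrays 1 to 3. The gap between the lowest infarction and the highest sham array was 0.04, and infarction arrays 2 to 5 lay within 0.05 of each other. The difference was 0.26 ± 0.19 (log2, SE), 95% interval -0.15 to 0.67, with an adjusted p of 0.696 (limma), so it did not pass. With bi-weight averages it was 0.09. Without sham array 3, the lowest, it was 0.15, and without infarction array 1, which stood apart from the other 4, it was 0.20.

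**Figure D1:**
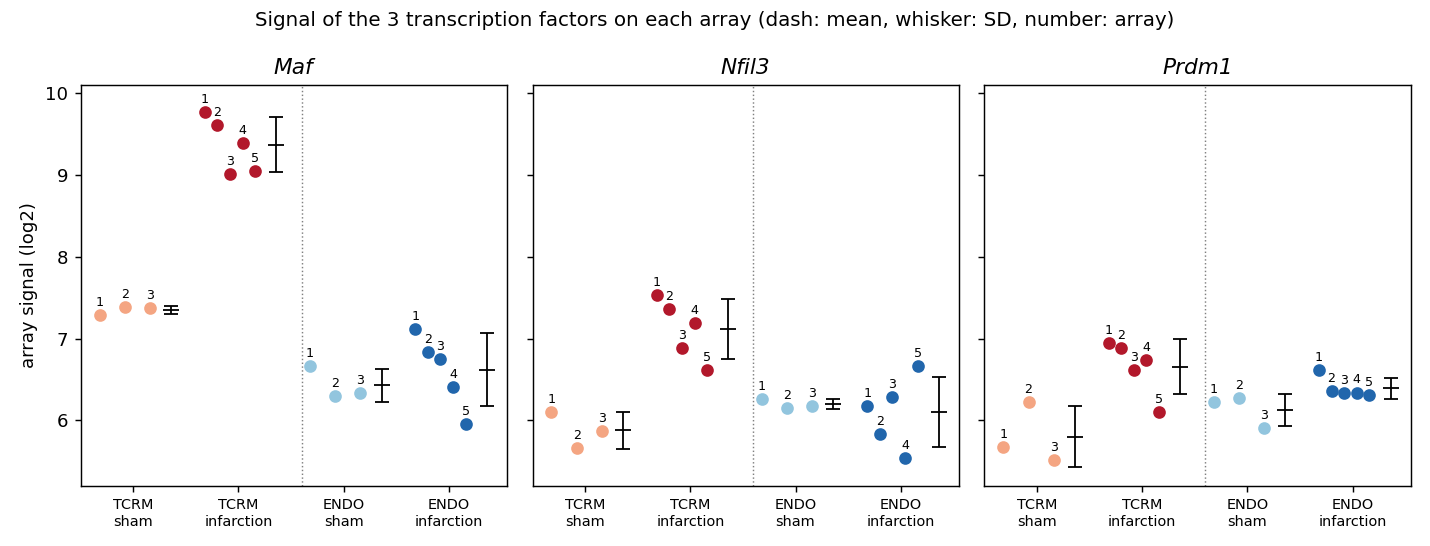
Log2 signal of Maf, Nfil3 and Prdm1 on each of the 16 arrays (points, numbered by array), with the mean and SD of each group beside them. Infarction and sham arrays are apart in TCRM cells for Maf (gap 1.62) and Nfil3 (gap 0.52) and overlap for Prdm1, while in ENDO cells only Prdm1 has its groups apart, by 0.04; TCRM and ENDO levels were normalized separately.

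None of the 3 genes passed in ENDO cells, where 0.888% of the 28941 tested probe sets had an adjusted p under 0.05 in limma (257, with 3321 at unadjusted p under 0.05). None of the 3 had an unadjusted p under 0.05 there either (0.428, 0.69 and 0.199 for Maf, Nfil3 and Prdm1). All infarction arrays above all sham arrays was found for 2 of 3 members in TCRM cells, where 5.64% of tested probe sets had it. That share is given as background only, because the TCRM difference chose the members. In ENDO cells it was found for 1 of 3 members, against 3.02% of tested probe sets. The ENDO count of 257 rests on a spread shared with the TCRM arrays. The median SD over tested probe sets was 0.28 on ENDO and 0.16 on TCRM infarction arrays, and 0.21 and 0.22 on sham arrays. With limma fitted to ENDO cells only, the spread came from 8 arrays and 0 probe sets were called. The ENDO intervals of the members were then -0.39 to 0.77 for Maf, -0.64 to 0.45 for Nfil3 and -0.05 to 0.57 for Prdm1.

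The TCRM difference exceeded the ENDO difference by 1.83 ± 0.33 (log2, SE) for Maf, by 1.34 ± 0.33 for Nfil3 and by 0.59 ± 0.27 for Prdm1. These contain the TCRM difference that chose the genes, and no p is given. For Prdm1 the excess was 1.03 with bi-weight averages. Without array 5 of both infarction groups the TCRM differences were 2.10, 1.36 and 0.99 for Maf, Nfil3 and Prdm1, and the ENDO differences were 0.35, -0.24 and 0.28 with adjusted p (limma) between 0.361 and 0.557. With these arrays counted as sham, as their source names have it, the TCRM differences were 1.67, 1.18 and 0.92. The ENDO differences were then 0.47, -0.35 and 0.24, and none passed, with adjusted p (limma) between 0.353 and 0.405.

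**Figure D2:**
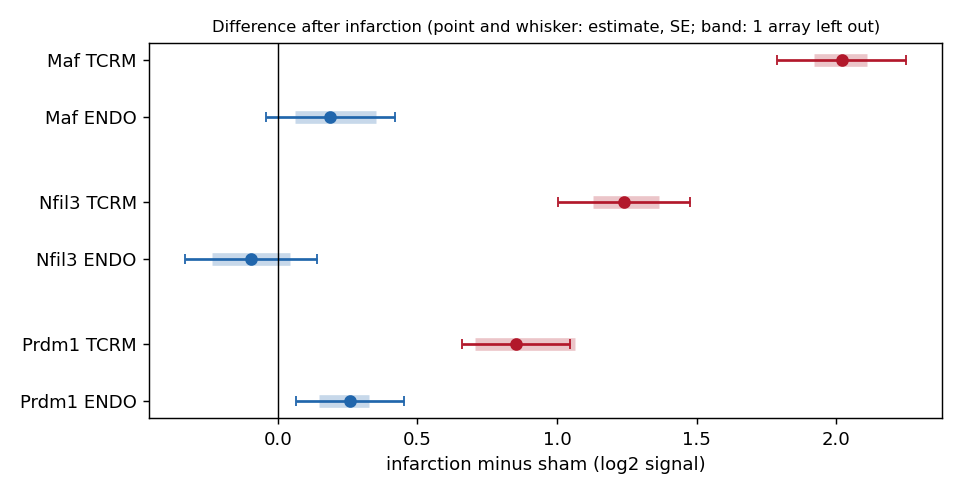
Infarction minus sham difference in log2 signal for each gene and population, as the estimate with its SE (point and whisker), with the range over fits that leave out 1 array (pale band). TCRM differences lie between 0.71 and 2.11 under all of these, while ENDO differences lie between -0.24 and 0.35 and include 0 for Nfil3.

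Across the 4 groups Maf signal was ordered TCRM infarction (9.37), TCRM sham (7.35), ENDO infarction (6.62 ± 0.45, SD, n = 5) and ENDO sham (6.43 ± 0.20, SD, n = 3), and the last neighbours did not differ beyond their spread. Nfil3 ran from TCRM infarction (7.12) over ENDO sham (6.19) and ENDO infarction (6.10) to TCRM sham (5.88), and the last 3 means lay closer together than the SD of ENDO infarction (0.43). Prdm1 ran from TCRM infarction (6.65 ± 0.34, SD, n = 5) over ENDO infarction (6.39) and ENDO sham (6.13) to TCRM sham (5.80), each step no larger than the SD of TCRM infarction. Steps between populations in these orders were not tested because of the separate normalization. With all 16 arrays quantile normalized together the order was the same for each gene, with Maf at 9.22, 7.33, 6.54 and 6.37, Nfil3 at 7.06, 6.09, 6.03 and 5.98, and Prdm1 at 6.65, 6.32, 6.01 and 5.92.

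Within the TCRM infarction group the genes ranked the animals alike. Array 1 was highest, array 2 next and array 4 after it for Maf, for Nfil3 and for Prdm1, and arrays 3 and 5 were the lowest for all of them. This order of arrays 1, 2 and 4, picked after the values were seen, was held by 2.64% of all tested probe sets and by 31 of 131 other named genes. All 31 were among the 119 of these that were higher after infarction in TCRM cells. Among the named genes that Maf is known to activate, Il21 had the order of Maf exactly (8.54, 8.21, 7.16, 8.14 and 7.87 on arrays 1 to 5), and Il4 did not (7.54, 7.48, 7.23, 7.70 and 7.26). Tigit, Vdr, Nkg7, Cyfip1, Osbpl3, Ptpn13 and Timp2 also had the order of Maf. The share of all tested probe sets with this full order was not counted. Trat1 had the opposite order, lowest on array 1 (7.29) and highest on array 3 (8.28). Median log2 signal of these arrays was 5.37 on arrays 1 and 2, 5.41 on arrays 3 and 4 and 5.39 on array 5, and a part of RNA quality or cell numbers was not tested.

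In the ENDO infarction group Maf and Prdm1 ranked the arrays nearly alike, and Nfil3 departed from both. From high to low, Maf ran over arrays 1, 2, 3, 4 and 5, Nfil3 over 5, 3, 1, 2 and 4, and Prdm1 over 1, 2, 4, 3 and 5. The Prdm1 order was that of its TCRM infarction arrays, and Bhlhe40 had this order in both populations. On arrays 2 to 5 the Prdm1 ranks rest on small steps (6.36, 6.33, 6.34 and 6.31). Of 131 other named candidates, 40 had array 1 as their most distant array on the high side. The share of all tested probe sets with these ENDO orders was not counted. Arrays 3 and 4, whose places differ between Maf and Prdm1, had Prdm1 signal of 6.33 and 6.34. The highest Nfil3 and the lowest Maf values were thus on the same array, infarction 5. That array also had the highest median log2 signal (5.79) and the lowest upper quartile (6.76) of all arrays. A part of this in the Maf and Nfil3 values was not tested.

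**Figure D3:**
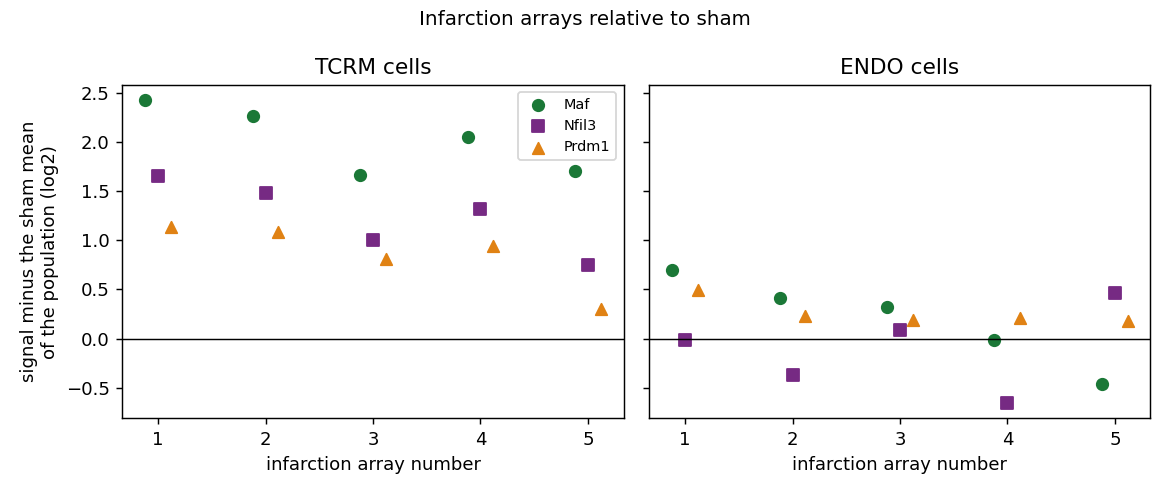
Log2 signal on each infarction array minus the mean of the population's sham arrays, for Maf (circles), Nfil3 (squares) and Prdm1 (triangles). In TCRM cells every point lies above 0, with arrays 1, 2 and 4 the highest for each gene, and in ENDO cells Maf and Prdm1 have arrays 1 and 2 highest while Nfil3 is highest on array 5.

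Other factors of helper T cells were looked up in a list of 50, of which 5 were named in the authors' tables: the 3 members, Bhlhe40 and Zbtb32. In TCRM cells 5 of 5 were higher after infarction, with a median of 1.24, against a median of 0.00 over all tested probe sets. In ENDO cells 0 of 5 passed and the median was 0.19, against 0.00 over all. All 5 owe their names to selection in the authors' tables. Bhlhe40, a basic helix-loop-helix factor of activated T cells that is also on the list of circadian partners of Nfil3 (1 of 16 named), differed by 1.42 ± 0.20 (log2, SE) in TCRM and -0.01 ± 0.20 in ENDO cells. Its TCRM infarction arrays lay between 8.31 and 8.65 and its sham arrays between 6.41 and 7.50. Zbtb32, a zinc finger repressor, differed by 0.81 ± 0.23 in TCRM and 0.22 ± 0.23 in ENDO cells, and its groups overlapped in both. Further factors in the tables were Vdr, the vitamin D receptor (1.46 ± 0.26 in TCRM, 0.01 ± 0.26 in ENDO), Nfia, a nuclear factor I protein (1.19 ± 0.18 and 0.00 ± 0.18), and Zfp69, a zinc finger protein (1.43 ± 0.23 and -0.02 ± 0.23). Of the 40 basic leucine zipper factors listed, Maf and Nfil3 alone were named.

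Genes that the members are known to control were few among the named ones, and they owe their names to selection in the authors' tables. Of 131 named candidates other than the members, 119 were higher in TCRM cells after infarction. Of 8 genes regulated by Maf, Il4 and Il21 were named, and both were higher in TCRM cells after infarction, Il4 (interleukin 4) by 2.04 ± 0.24 (log2, SE) and Il21 (interleukin 21) by 3.19 ± 0.30. The size for Il21 is uncertain, since its TCRM sham mean of 4.79 was close to the filter of 4.72. In ENDO cells Il4 differed by 0.25 ± 0.24 and Il21 by -0.13 ± 0.30, and neither passed. Mean Il21 signal there was 4.77 after infarction and 4.90 after sham, also close to the filter, so its ENDO difference is uncertain too. Of 12 genes of the co-inhibitory module of Prdm1 and Maf, 3 were named: Tigit (3.10 ± 0.28), Pdcd1, which encodes PD-1 (1.97 ± 0.30), and Nt5e, which encodes the ectoenzyme CD73 (1.93 ± 0.24). In ENDO cells they differed by 0.66 ± 0.28, 0.41 ± 0.30 and -0.06 ± 0.24, with adjusted p (limma) of 0.377, 0.691 and 0.965, so 0 of 3 passed. Of 10 genes that Prdm1 opposes, such as Bcl6 and Tcf7, none was named, and they were not analysed here.

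**Figure D4:**
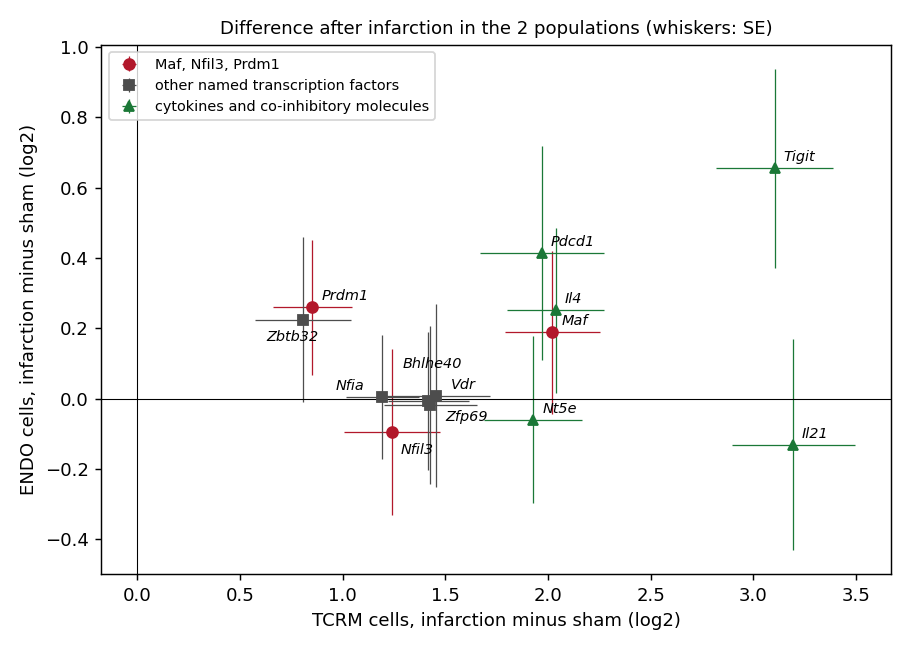
Infarction minus sham difference (log2, whiskers SE) in TCRM cells on the horizontal and in ENDO cells on the vertical axis, for the 3 genes (circles), other named transcription factors (squares) and named cytokines and co-inhibitory molecules (triangles). All lie at 0.81 or more in TCRM cells and none above 0.66 in ENDO cells, and the authors' selection of these genes in TCRM cells fixes the first of these.

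The named genes most like each member were found by the mean absolute difference of their profiles over the 16 arrays, after the sham mean of each population was subtracted, among 131 candidates. This distance is not scaled, so it depends on the size of the TCRM difference, which chose the members. That difference was 1.68 to 2.28 for the genes found for Maf (Maf 2.02), 1.17 to 1.41 for Nfil3 (1.24) and 0.81 to 1.17 for Prdm1 (0.85). Likeness here is therefore no separate evidence of shared control. For Maf these were H1f0, a linker histone (0.17 on the log2 scale), Nt5e (0.21), Csf1, the macrophage colony-stimulating factor (0.22), Nav2 (0.24) and Eea1, an early endosome protein (0.25), where the median candidate was at 0.46. For Nfil3 they were Cyfip1, an actin regulator (0.19), Osbpl3 (0.20), Plscr1, a phospholipid scramblase (0.21), Ptpn13, a tyrosine phosphatase (0.21), and Wisp1 (0.21), against a median of 0.38. For Prdm1 they were Zbtb32 (0.20), Atcay (0.21), Timp2, an inhibitor of metalloproteinases (0.21), Phactr2 (0.21) and Cxcr3, a chemokine receptor (0.22), against a median of 0.40. The members were less like each other than like these nearest genes, and near the median candidate. Of 131 candidates, 61 were closer to Prdm1 than Nfil3 was (0.37, median 0.40), and 79 were closer to Maf than Nfil3 was (0.50, median 0.46).

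Cells were sorted as CD4+ and T cell receptor beta+. Prdm1 also marks plasma cells, and markers of other cells were few among the named genes: Cd22 of 8 B cell markers, Nkg7 of 9 markers of CD8 T and natural killer cells, Prdm1 itself of 7 plasma cell markers and none of 10 myeloid markers. Cd22 was higher in TCRM cells after infarction, with signal between 7.04 and 7.24 on infarction arrays and between 5.52 and 6.32 on sham arrays. Nkg7 lay between 8.54 and 9.42 on TCRM infarction and between 7.36 and 8.42 on sham arrays. In ENDO cells Cd22 (5.75 to 5.89 against 5.42 to 5.73) and Nkg7 (7.50 to 8.32 against 7.14 to 7.33) had their groups apart as Prdm1 did, with differences of 0.23 ± 0.15 and 0.49 ± 0.24 (log2, SE) that did not pass. Trat1, the only named marker of CD4+ T cells, was lower in TCRM cells after infarction (-1.10 ± 0.27). The part of other cells in the Prdm1 values was not tested.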

How the data were processed

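The authors deposited 1 table of log2 signal (16 arrays, 41345 probe sets). Per the submitters' processing notes, they used Affymetrix Expression Console and Transcriptome Analysis Console. How probes were summarised, the versions and the genome build were not given in the sources used here. They also deposited a table per population with bi-weight log2 averages, a linear fold, an FDR and a p-value, per the file headers, and these tables supply all gene names. Decimal commas were read as points.

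Mean log2 signal had to reach its 30th percentile, 4.721, which 28941 probe sets did, the 3 members among them. With limma 3.58.1 (R 4.3.3), a linear model with 1 mean per group, taken from the titles, was fitted to the 16 arrays together, with Benjamini-Hochberg adjustment of p over all tested probe sets, with a threshold of 0.05. The fit was also run on simulated data with noise drawn independently for each probe set and array. Effects shared across a whole array were not covered by that. The number of arrays limits the precision. Members, gene lists and motifs were chosen with earlier results of these data known. Genes named are the members, the listed genes that the tables name, the 5 most similar genes per member, 3 further transcription factors and genes standing apart on the same array as a member. Gene models, receptor segments, small RNAs and genes with close paralogs were left out of the similarity search. Alternatives were the filter, scaling, spread, weights, arrays left out, the source names and the array number as a block. Bi-weight averages were added after seeing the data. Sequences are from RefSeq (GRCm38.p6). Plots used matplotlib 3.10.9 (python 3.11.15).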

Additional observations from a re-analysis of the deposited data

Results flagged for a closer look

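Among groups of 5 arrays, 58 sets of values were checked for an array far from the other 4, as its gap to the nearest divided by the range, and 3 exceeded the bound of 0.71, where chance gives about 1 in 20. Of the 6 sets of the members, 1 did. Prdm1 on ENDO infarction array 1 had a ratio of 0.844, with 6.62 against 6.31 to 6.36 on the other arrays. Nkg7, a gene of cytotoxic cells, stood apart on the same array with a ratio of 0.808 (8.32 against 7.50 to 7.66). Zbtb32, the gene most like Prdm1, was also highest there (6.79 against 6.19 to 6.37, ratio 0.693). Further genes, outside the 58 sets, were picked from 131 named candidates because they stood apart on this array, and their ratios are no separate evidence: Twsg1 (7.21 against 5.70 to 6.13, ratio 0.718), Fam43a (6.15 against 5.63 to 5.77, ratio 0.720) and Myl6 (8.26 against 5.35 to 6.21, ratio 0.705). Of these candidates, 40 had array 1 as their most distant array on the high side. Cyfip1, the gene most like Nfil3, had a ratio of 0.762 on ENDO infarction array 5, its highest value (7.03), and Nfil3 was highest on that array too (6.66). Zbtb32 and Cyfip1 were found as most like their members over all arrays, these included. Their high values on the same arrays as the members are therefore no separate evidence.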

How the results depend on the processing

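No ENDO difference of Maf, Nfil3 or Prdm1 passed under any of 26 alternatives with a test, with adjusted p (limma) from 0.353 to 0.989. Maf and Prdm1 stayed above 0 in ENDO cells in 27 of 27 alternatives, bi-weight averages included, and Nfil3 was above 0 in 1 of 27. These counts do not measure how stable the signs are, because many of the alternatives cannot move an ENDO estimate. Such are changes of the filter, of the spread or to a random replicate block, the ENDO arrays alone, and leaving out a TCRM array. The ENDO estimates ranged from 0.06 to 0.47 for Maf, -0.35 to 0.04 for Nfil3 and 0.09 to 0.33 for Prdm1. With bi-weight averages, chosen after seeing the data, the ENDO difference of Prdm1 was 0.0918 and its excess in TCRM cells 1.03. With infarction array 5 counted as sham, the TCRM difference of Maf was 1.67 and its excess over ENDO cells 1.20. The cause was not tested.

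With 1 array left out in turn, TCRM differences ranged from 1.92 to 2.11 for Maf, 1.13 to 1.36 for Nfil3 and 0.71 to 1.06 for Prdm1. ENDO differences ranged from 0.06 to 0.35, from -0.24 to 0.04 and from 0.15 to 0.33. The excess in TCRM cells ranged from 1.67 to 1.96, 1.20 to 1.48 and 0.45 to 0.81.

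The count of 257 ENDO probe sets was 442 after quantile normalization, 1529 with array weights, 0 with the ENDO arrays alone and 448 without infarction array 5 of both populations. With 1 array left out it ranged from 51 (without ENDO sham array 1) to 639 (without ENDO infarction array 5). It was 152 without ENDO infarction array 1, 170 and 117 without ENDO sham arrays 2 and 3, and 151, 162 and 155 without TCRM infarction arrays 2, 3 and 4.

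Both populations came from the same animals, but no label says whether equal array numbers mean the same animal. Deviations of same-numbered arrays correlated between -0.089 and 0.077 over 8 pairs, with 0 above 0.1. With the number as a fixed replicate block the excess in TCRM cells was 1.83 ± 0.23 (SE) for Maf, 1.34 ± 0.38 for Nfil3 and 0.59 ± 0.21 for Prdm1, and with a random replicate block 266 ENDO probe sets were called. Signal over background is not known here.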
